A study of Mus musculus with 36 samples.

Results

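Cry1, Cry2 and Fbxl21 were followed through the suprachiasmatic nucleus (SCN), the hypothalamic clock of the mouse, across drug, light and time of day. Each gene was read from the brightest probe set that carries its symbol alone, and each had exactly 1 such probe set, so these are 3 genes of 30176 with a symbol of their own and 3 probe sets of 65956 tested. Both cryptochromes and Fbxl21 are given by NCBI gene identifier and GRCm38.p6 position: Cry1 (12952) on chromosome 10 at 85131700 to 85185054, Cry2 (12953) on chromosome 2 at 92403646 to 92434085, and Fbxl21 (213311) on chromosome 13 at 56522388 to 56537898, all protein coding.

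Adult C57BL/6J mice of 8 to 14 weeks, with no genetic change, carried a cannula in the lateral ventricle and spent 2 days in darkness. They received 10 mM U0126, an inhibitor of the kinase MEK that lies upstream of ERK in the MAPK pathway, or the vehicle DMSO, and 30 min later a pulse of light (100 lux, 10 min) or a sham pulse in the dark. This gave U0126-Light, U0126-Sham, DMSO-Light and DMSO-Sham groups at each of circadian time 4 (CT4, subjective day), CT15 (early subjective night) and CT22 (late subjective night), 12 groups with 3 arrays each. Every array held SCN RNA pooled from 2 mice of unstated sex in the labels, and no group lacked the surgery and infusion. An array median lay between 4.51 and 4.66 on the log2 scale, each array correlated with the rest at a mean of 0.986 or more, and Xist, which female cells express, spanned 3.24 to 10.52. At CT4 Xist was 3.29 to 3.39 on the DMSO-Light arrays and 9.25 or above on the arrays of the other groups, while at CT15 and CT22 each group held arrays at 3.79 or less and at 9.87 or more. Sex and light therefore cannot be told apart in DMSO at CT4, nor sex and U0126 among lit animals at CT4. Each CT4 group was all low or all high in Xist and the later groups were mixed, so comparisons of times with CT4 were also uneven in sex. All 12 SCN marker genes fixed for the tissue check had signal on every array, Prok2 reaching as low as 4.83 and Vip and Avp never lying under 8.12 and 9.13. Of 4 genes listed for neighbouring neurons (Oxt, Sim1, Otp and Pomc), Oxt was at 9.37 or above, and the 4 summed to between 26.84 and 31.96. Tissue beside the SCN may have been collected too, which was not tested. In whole tissue, fewer cells of a type and less RNA per cell cannot be told apart.

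Cryptochromes are the repressors of the mammalian clock: with the PERIOD proteins they bind CLOCK and BMAL1 (Arntl) and shut down the E-box genes that this pair switches on, their own genes among them. How long a cryptochrome lasts is set by ubiquitin ligases of the SKP1, CUL1 and F-box type, in which the F-box subunit chooses the substrate. FBXL21 is a leucine-rich repeat F-box protein that binds cryptochromes and is enriched in the SCN, and its ligase has been described as slowing their loss in the nucleus. Only RNA was measured here, so protein amounts were not analysed.

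Sequences just upstream of Cry1, Cry2 and Fbxl21 are shown as a description, and their relation to time of day or light was not tested. They were taken from RefSeq on GRCm38.p6, in a window of 250 bases before the listed transcript start and without bases that lie inside the annotated gene, and run 5′ to 3′ on the gene's strand. Cry1 is at chr10:85185055-85185304 on the minus strand, Cry2 at chr2:92434086-92434319 on the minus strand and Fbxl21 at chr13:56522222-56522387 on the plus strand. Capitals mark matches, on either strand, to the E-box CACGTG, the E-box variant CACGTT or the cyclic AMP element core TGACG.
Cry1: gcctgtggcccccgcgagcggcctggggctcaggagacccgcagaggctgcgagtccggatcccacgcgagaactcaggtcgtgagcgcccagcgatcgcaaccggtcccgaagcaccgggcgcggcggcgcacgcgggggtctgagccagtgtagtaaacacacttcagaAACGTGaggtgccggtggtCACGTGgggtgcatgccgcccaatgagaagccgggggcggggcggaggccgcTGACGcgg
Cry2: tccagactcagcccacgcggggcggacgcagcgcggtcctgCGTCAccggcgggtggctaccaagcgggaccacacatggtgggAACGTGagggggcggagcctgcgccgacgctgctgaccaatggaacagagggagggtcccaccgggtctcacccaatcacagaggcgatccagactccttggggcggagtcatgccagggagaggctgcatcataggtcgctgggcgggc
Fbxl21: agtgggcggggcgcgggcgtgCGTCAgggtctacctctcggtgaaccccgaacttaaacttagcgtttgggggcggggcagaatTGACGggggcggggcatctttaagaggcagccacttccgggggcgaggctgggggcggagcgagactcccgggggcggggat
The E-box CACGTG occurred in the Cry1 window only, 60 bases before the start, and 6.02% of 32851 RefSeq promoter windows hold it. The variant CACGTT lay on the opposite strand 79 bases before the start of Cry1 and 166 bases before that of Cry2 (3.85% of windows). The core TGACG lay 8 bases before the start of Cry1, 209 before that of Cry2, and 229 and 166 before that of Fbxl21 (17.8% of windows). Positions count back from the listed transcript start. For Cry2 and Fbxl21 this start lies inside the annotated gene, so their printed stretches end before it. No window of the 3 genes held AGGTCA (14% of windows), the D-box forms TTATGTAA (0.819%) and TTACGTAA (0.113%), or the full element TGACGTCA (1.55%). TGACG is contained in TGACGTCA, and CACGTG and CACGTT share their first 5 letters. A match describes letters and not a bound site, and elements outside these windows were not searched.

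Cry1 RNA was highest at CT15 and lowest at CT22. At CT4 its log2 intensity was 6.89, 6.87 and 6.91 in U0126-Light, 6.86, 6.86 and 6.93 in U0126-Sham, 7.02, 7.06 and 6.88 in DMSO-Light, and 6.97, 6.88 and 6.94 in DMSO-Sham. At CT15 it was 7.06, 6.99 and 7.07 in U0126-Light, 7.20, 6.95 and 7.03 in U0126-Sham, 7.29, 7.23 and 7.25 in DMSO-Light, and 7.16, 7.17 and 7.20 in DMSO-Sham. At CT22 it was 6.82, 6.86 and 6.71 in U0126-Light, 6.82, 6.88 and 6.72 in U0126-Sham, 6.75, 6.75 and 6.74 in DMSO-Light, and 6.70, 6.77 and 6.77 in DMSO-Sham. All 12 arrays of CT22 lay below all 12 arrays of CT15, which held for 5.79% of probe sets in this comparison, and the lowest CT15 values belonged to arrays given U0126. The means over the 4 treatments were 6.92 at CT4, 7.13 at CT15 and 6.77 at CT22 (SD 0.06, 0.11 and 0.06, n = 12 arrays each).

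Calls required that the Benjamini-Hochberg adjusted p of the limma fit did not exceed 0.1 and that the groups differed by more than 1.3-fold, or 0.379 on the log2 scale. Under U0126, Cry1 at CT22 differed from CT15 by -0.24 with light (adjusted p = 0.00554, 8.85% of probe sets called) and by -0.25 without (adjusted p = 0.00216, 13.3% called), past the p limit and short of the fold limit. In DMSO-Light it fell by 0.51 at CT22 relative to CT15 (adjusted p = 3.42e-06, 7.16% called). In DMSO-Sham it fell by 0.43 (standard error 0.06, 95% confidence interval -0.55 to -0.31, adjusted p = 2.17e-05), a call that 5.96% of probe sets shared, and the 3 arrays of each time did not overlap, as for 31.7% of probe sets. Averaged over the 4 treatments it was -0.36 (standard error 0.03, adjusted p = 1.92e-10), a fold of 0.779 that just missed the call made for 7.3% of probe sets. The rise of Cry1 by CT15 was smaller: CT15 exceeded CT4 by 0.25 in DMSO-Sham (adjusted p = 0.0158, no array overlap, as for 22.6% of probe sets) and by 0.21 over the 4 treatments (adjusted p = 8.24e-06), neither past the fold limit. With the mean level of 7 SCN markers as a covariate these were 0.17 (adjusted p = 0.192) and 0.14 (adjusted p = 0.0519). CT22 differed from CT4 by -0.18 in DMSO-Sham (adjusted p = 0.0705, or -0.15 with adjusted p = 0.181 and Xist as a covariate) and by -0.15 over the 4 treatments (adjusted p = 0.000409). In limma, 11217 and 27598 of 65956 probe sets had an unadjusted p under 0.05 in these comparisons. With 3 arrays a group, an exact two-sided permutation test of 1 gene cannot go below 0.1, the value it gave for Cry1 in each of these DMSO-Sham comparisons, so the small p-values rest on the spread pooled over all 12 groups.

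Over the 4 treatments and in both DMSO treatments, Cry2, the second cryptochrome, was highest at CT4 and lowest at CT15. Its range was narrower than that of Cry1. Under U0126 the order of the means differed, with arrays that overlapped. In U0126-Sham, Cry2 had a mean of 7.49 at CT22 and 7.45 at CT4. In U0126-Light, Cry2 had a mean of 7.40 at CT22 and 7.42 at CT15. At CT4 its log2 intensity was 7.61, 7.54 and 7.46 in U0126-Light, 7.52, 7.47 and 7.35 in U0126-Sham, 7.65, 7.60 and 7.54 in DMSO-Light, and 7.58, 7.47 and 7.53 in DMSO-Sham. At CT15 it was 7.42, 7.52 and 7.32 in U0126-Light, 7.26, 7.30 and 7.26 in U0126-Sham, 7.32, 7.34 and 7.18 in DMSO-Light, and 7.18, 7.30 and 7.30 in DMSO-Sham. At CT22 it was 7.34, 7.47 and 7.39 in U0126-Light, 7.52, 7.50 and 7.44 in U0126-Sham, 7.43, 7.43 and 7.44 in DMSO-Light, and 7.39, 7.44 and 7.26 in DMSO-Sham. CT4 held the highest DMSO arrays and CT15 the lowest. The DMSO-Sham arrays of CT15 lay below those of CT4, as for 22.6% of probe sets, whereas U0126-Light at CT15 overlapped U0126-Light at CT4. The means over the 4 treatments were 7.53 at CT4, 7.31 at CT15 and 7.42 at CT22 (SD 0.08, 0.10 and 0.07, n = 12 arrays each).

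No time difference of Cry2 passed the fold limit, although several passed the adjusted p. CT15 differed from CT4 by -0.11 in U0126-Light (95% confidence interval -0.24 to 0.02, adjusted p = 0.403, 1.4% called), -0.18 in U0126-Sham (adjusted p = 0.0944, 4.71% called) and -0.32 in DMSO-Light (adjusted p = 0.00674, 1.75% called). In DMSO-Sham the difference was -0.27 (standard error 0.06, adjusted p = 0.014, no overlap), where 2.21% of probe sets were called and 22.6% had arrays that did not overlap. Over the 4 treatments it came to -0.22 (adjusted p = 1.17e-05, 1.79% called). CT22 differed from CT15 by -0.02 in U0126-Light (adjusted p = 0.851, 8.85% called) and by 0.22 in U0126-Sham (adjusted p = 0.0124, 13.3% called). It differed by 0.16 in DMSO-Light (adjusted p = 0.0941, 7.16% called) and by 0.10 in DMSO-Sham (adjusted p = 0.332, 5.96% called). Over the 4 treatments the difference was 0.11 (adjusted p = 0.00426, 7.3% called). There, 33613 of 65956 probe sets had an unadjusted p under 0.05 in limma. CT22 remained below CT4 over the 4 treatments (difference -0.11, adjusted p = 0.0119, 1.96% called), but not in U0126-Sham (0.04, adjusted p = 0.72, 4.1% called). In limma, 27598 of 65956 probe sets had an unadjusted p under 0.05 for this difference over the 4 treatments.

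Fbxl21 had the widest range of the 3, with its level in DMSO-Sham high at CT4 only. At CT4 its log2 intensity was 7.09, 6.85 and 7.04 in U0126-Light, 7.06, 6.96 and 7.03 in U0126-Sham, 7.31, 7.42 and 6.99 in DMSO-Light, and 7.07, 7.05 and 7.30 in DMSO-Sham. At CT15 it was 6.66, 6.64 and 6.84 in U0126-Light, 6.67, 6.44 and 6.48 in U0126-Sham, 7.07, 7.07 and 7.37 in DMSO-Light, and 6.61, 6.58 and 6.65 in DMSO-Sham. At CT22 it was 6.56, 6.70 and 6.40 in U0126-Light, 6.66, 6.62 and 6.14 in U0126-Sham, 6.55, 6.55 and 6.50 in DMSO-Light, and 6.48, 6.54 and 6.54 in DMSO-Sham. At CT15 the DMSO-Light arrays were as high as those of CT4, while U0126-Light, U0126-Sham and DMSO-Sham all lay at 6.84 or below. Every array of CT22 lay below every array of CT4, as for 1.76% of probe sets. The spread was largest in U0126-Sham at CT22 (SD 0.29), where replicate 3 was the lowest of all arrays at 6.14.

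In DMSO-Sham, Fbxl21 fell by 0.53 at CT15 relative to CT4 (standard error 0.12, 95% confidence interval -0.76 to -0.29, adjusted p = 0.00906) and by 0.62 at CT22 relative to CT4 (adjusted p = 0.00188), 2 calls set against 2.21% and 3.15% of all probe sets. Neither pair of groups overlapped, as for 22.6% and 20.6% of probe sets. CT22 differed from CT15 by only -0.10 there (adjusted p = 0.687). The decrease between CT22 and CT4 was called in every treatment: -0.44 in U0126-Light (adjusted p = 0.0298, 3.88% called), -0.54 in U0126-Sham (adjusted p = 0.00767, 4.1% called), -0.71 in DMSO-Light (adjusted p = 0.00199, 1.65% called) and -0.58 over the 4 treatments (standard error 0.06, adjusted p = 4.88e-08, 1.96% called). The U0126-Light call depended on single arrays: it was lost without replicate 1 of CT4 (-0.39, adjusted p = 0.115), without replicate 3 of CT4 (-0.42, adjusted p = 0.108) and without replicate 3 of CT22 (-0.36, adjusted p = 0.143). In U0126-Sham the difference was -0.38 without replicate 3 of CT22 (adjusted p = 0.0733), just short of the fold limit. The fall at CT15 was called in the sham groups only: CT15 differed from CT4 by -0.28 in U0126-Light (adjusted p = 0.223), by -0.48 in U0126-Sham (adjusted p = 0.014, called) and by -0.07 in DMSO-Light (95% confidence interval -0.31 to 0.17, adjusted p = 0.869). In DMSO-Light it fell by 0.64 at CT22 relative to CT15 (adjusted p = 0.000372, 7.16% called). The summed level of the 12 SCN markers moved with this difference, at 99.66 to 100.23 at CT22 and 103.26 to 106.37 at CT15 in DMSO-Light, with 2 of the 12 called higher and 5 lower. With the mean level of 7 SCN markers, not all 12, as a covariate the Fbxl21 difference was -0.25 (adjusted p = 0.436) and no longer called. The difference between CT15 and CT4 over the 4 treatments, -0.34 without the covariate, was -0.57 with it (adjusted p = 2.59e-05).

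**Figure D1:**
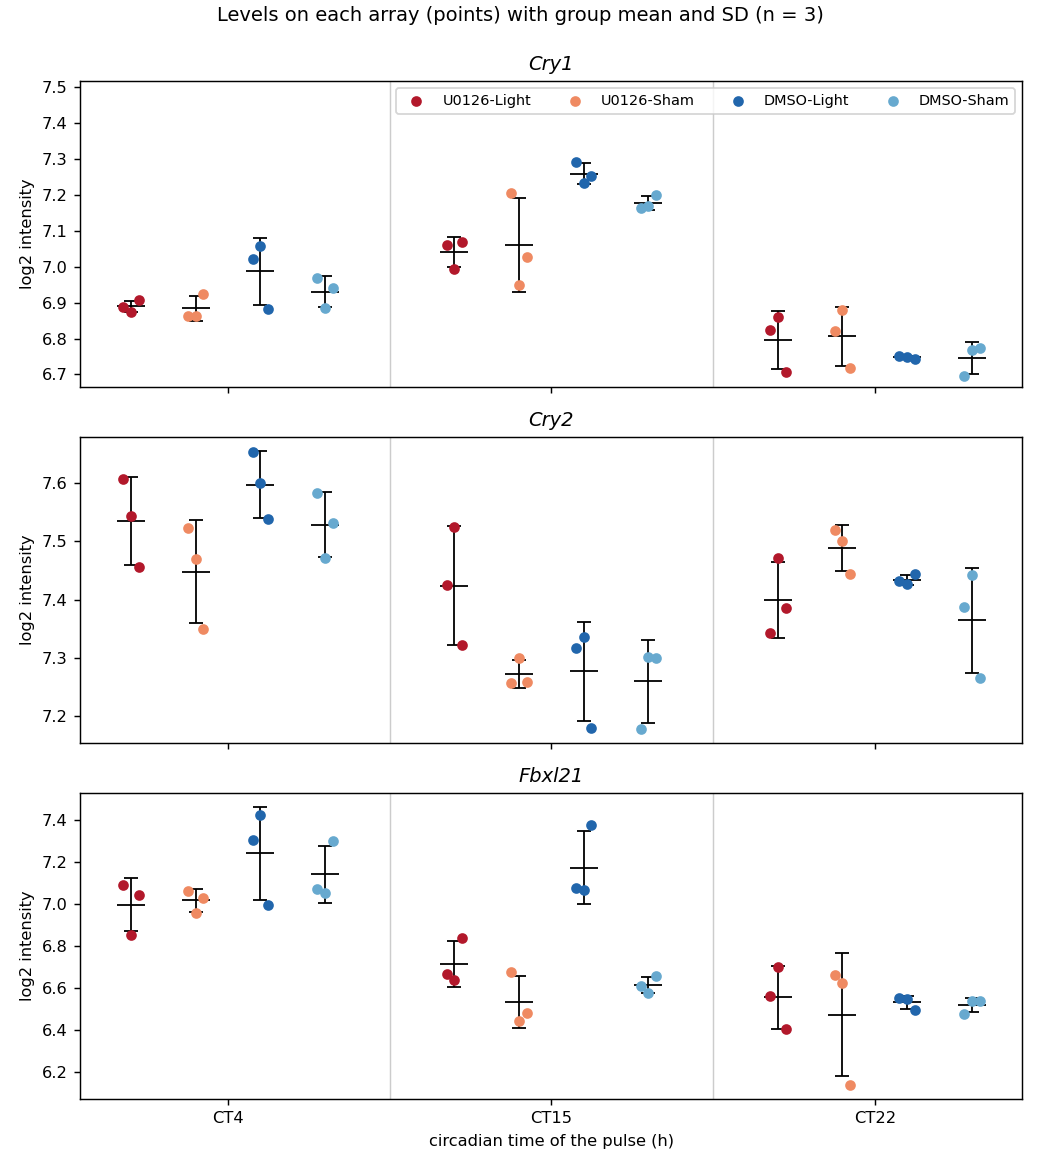
Log2 intensity of Cry1, Cry2 and Fbxl21 (1 panel each, y axis) at CT4, CT15 and CT22 (x axis) for the 4 treatments, with 1 point per array and bars for the group mean and SD (n = 3). Of the 3 times, Cry1 is highest at CT15 in each treatment and Cry2 is highest at CT4 in the DMSO treatments. Fbxl21 at CT15 is high in DMSO-Light alone (7.07, 7.07 and 7.37).

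**Figure D2:**
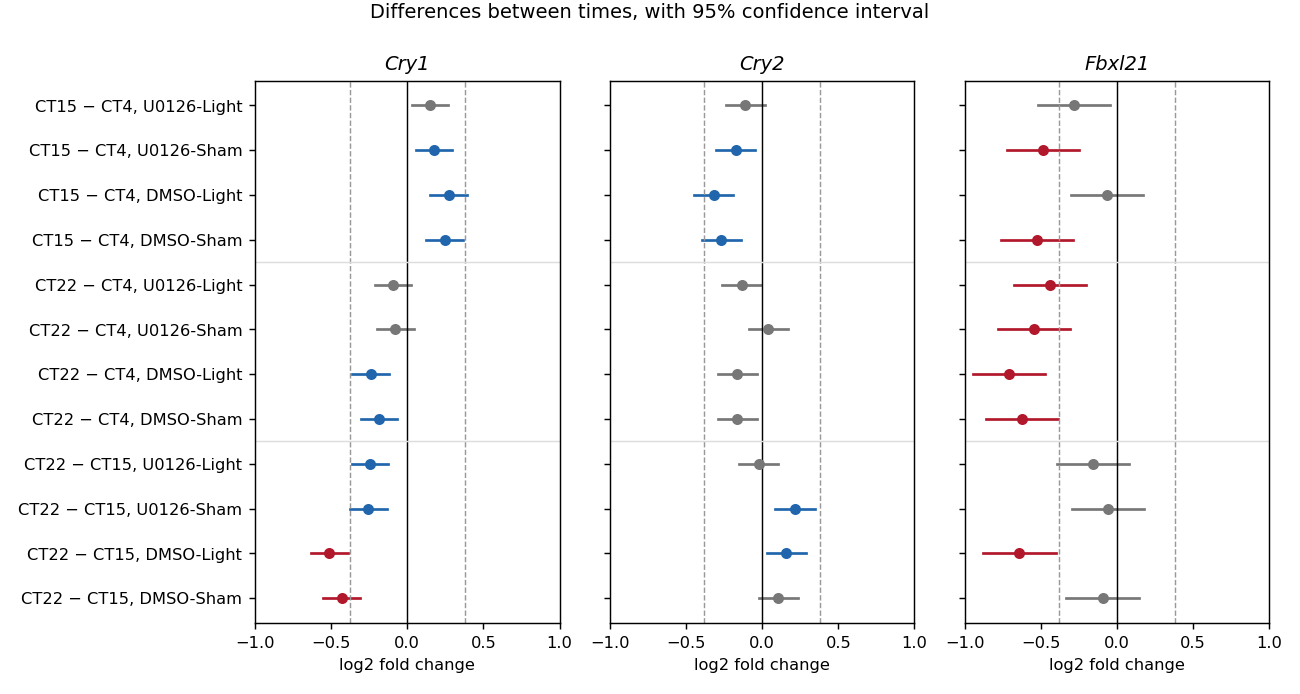
Differences between times within each treatment for Cry1, Cry2 and Fbxl21, as log2 fold change with its 95% confidence interval (x axis), 1 row per comparison. Red marks called differences, blue an adjusted p of at most 0.1 with a fold under 1.3, grey the rest, and dashed lines the fold limit. Fbxl21 is lower at CT22 than at CT4 in all 4 treatments, and Cry1 falls past the limit between CT22 and CT15 in the DMSO groups (-0.51 and -0.43).

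The order of the 12 group means shows how far neighbouring levels were separated. For Cry1 the 4 CT15 groups came first and the 4 CT22 groups last, and only the top gap, between DMSO-Light at CT15 (7.26, SD 0.03) and DMSO-Sham at CT15 (7.18, SD 0.02), had arrays that did not overlap, as for 13.7% of probe sets. For Cry2 all neighbours overlapped, from DMSO-Light at CT4 (7.60, SD 0.06) down to DMSO-Sham at CT15 (7.26, SD 0.07). For Fbxl21 only the gap of 0.28 below U0126-Light at CT4 (6.99, SD 0.13) was free of overlap, and it parted 5 high groups, the 4 of CT4 with DMSO-Light at CT15, from 7 low ones. The residual SD within groups was 0.0629 for Cry1, 0.0688 for Cry2 and 0.146 for Fbxl21, against a median of 0.133 over all probe sets. Time of day held 78.2%, 55.9% and 59.7% of their variance over the 36 arrays, against a median of 18.2%.

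Light raised Fbxl21 in vehicle at CT15. The 3 DMSO-Light arrays (7.07, 7.07 and 7.37) all lay above the 3 DMSO-Sham arrays (6.61, 6.58 and 6.65), a separation that 13.7% of probe sets had. The difference was 0.56 (standard error 0.12, 95% confidence interval 0.32 to 0.80, fold 1.47, adjusted p = 0.0554), and 0.105% of probe sets, 69 in all, were called in either direction. Single arrays decided the call: without replicate 3 of DMSO-Light, the highest array, the difference was 0.46 (adjusted p = 0.557), and without any 1 of the DMSO-Sham arrays it stayed between 0.54 and 0.58 with an adjusted p from 0.175 to 0.287. The summed level of the 12 SCN markers moved with it, at 103.26 to 106.37 in DMSO-Light and 99.15 to 100.47 in DMSO-Sham at CT15. None of these 12 markers was called and their median difference was 0.36, against -0.00315 over all probe sets. The 6 meningeal fibroblast markers summed to 30.97 to 33.35 in DMSO-Light and 33.39 to 34.18 in DMSO-Sham, and their part in the result was not tested. With the mean level of 7 SCN markers, not all 12, as a covariate, the Fbxl21 difference was 0.37 (adjusted p = 0.437). Several of the 12 markers, Rgs16 and Prok2 among them, are themselves known to be clock-controlled.

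At the other times no light difference of Fbxl21 was called. It was 0.10 at CT4 (95% confidence interval -0.14 to 0.34, adjusted p = 0.873), where 0% of probe sets were called and 4629 had an unadjusted p under 0.05 in limma. It was 0.01 at CT22 (95% confidence interval -0.22 to 0.25, adjusted p = 0.997), where 0.66% were called. The light response of Fbxl21 differed between CT22 and CT15 by -0.55 (standard error 0.16, limma adjusted p = 0.34, 0.0804% called), and between CT15 and CT4 by 0.46 (adjusted p = 0.741, 0% called, 3638 probe sets with an unadjusted p under 0.05), so neither difference between times passed after adjustment. With the SCN marker level as a covariate, the difference between CT22 and CT15 was -0.14 (adjusted p = 0.87). At CT4 the DMSO-Light and DMSO-Sham arrays also differed in Xist, as above, and with Xist as a covariate the Fbxl21 light difference there was 0.23 (adjusted p = 0.546) and the difference between CT15 and CT4 was 0.29 (adjusted p = 0.89).

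Under U0126, light at CT15 gave an Fbxl21 difference of 0.18 (95% confidence interval -0.06 to 0.42, adjusted p = 1), with arrays that overlapped. No probe set was called for light under U0126 at CT4, CT15 or CT22 (0%), and 2815, 2974 and 3183 had an unadjusted p under 0.05 in limma. The response under U0126 minus that in DMSO at CT15 was -0.38 for Fbxl21 (standard error 0.16, limma adjusted p = 0.759), so the difference did not pass after adjustment. That comparison called 0% of probe sets at each time, with 2006, 3964 and 3515 at an unadjusted p under 0.05. Among lit animals at CT15, the U0126-Light arrays (6.66, 6.64 and 6.84) all lay below the DMSO-Light arrays (7.07, 7.07 and 7.37), as for 14.4% of probe sets. The difference was -0.46 (standard error 0.12, adjusted p = 0.112), short of the call that 0.233% of probe sets received. With the replicate number as a block it was -0.46 with an adjusted p of 0.0856 and was called. With 1 array left out at a time it ran from -0.52 to -0.36 (adjusted p from 0.128 to 0.481) and was never called. The 12 SCN markers summed to 98.28 to 100.89 in U0126-Light and 103.26 to 106.37 in DMSO-Light. Among them 3 were called lower, and the median difference of the 12 was -0.478, against 0.0231 over all probe sets. The sums of 5 endothelial markers (30.63 to 31.18 against 31.74 to 32.59) and 4 astrocyte markers (28.36 to 28.93 against 29.37 to 29.53) were also lower without overlap. Those of the other cell type lists overlapped, and the part of cell content in the result was not tested. With the mean level of 7 SCN markers, not all 12, as a covariate the Fbxl21 difference was -0.20 (adjusted p = 0.427). This comparison shares the DMSO-Light arrays with the light response above. Averaged over sham and light, a contrast added after the data were seen, the U0126 difference of Fbxl21 at CT15 was -0.27 (adjusted p = 0.0568, under the fold limit, 2.87% called). It was -0.099 with the SCN marker level as a covariate (adjusted p = 0.529).

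No light difference of either cryptochrome was called. Cry1 differed by 0.06, 0.08 and 0.00 in DMSO at CT4, CT15 and CT22 (adjusted p = 0.86, 0.84 and 0.999), and all 3 confidence intervals stayed within -0.12 and 0.20, so a response past the fold limit lay outside them. At CT15 the 3 DMSO-Light arrays of Cry1 (7.29, 7.23 and 7.25) lay above the 3 DMSO-Sham arrays (7.16, 7.17 and 7.20), a separation that 13.7% of probe sets had. Cry2 differed by 0.07, 0.02 and 0.07 at the same times (adjusted p = 0.837, 0.978 and 0.924, intervals within -0.11 and 0.20). Under U0126 the largest light difference of Cry2 was 0.15 at CT15, where the adjusted p was 1. The arrays there read 7.42, 7.52 and 7.32 in U0126-Light and 7.26, 7.30 and 7.26 in U0126-Sham. Light under U0126 left Cry1 within 0.02 of sham at all 3 times.

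No U0126 difference of Cry1 at CT15 was called. The averages over sham and light and the contrasts of time differences between drugs given here were added after the data were seen. In lit animals the U0126-Light arrays (7.06, 6.99 and 7.07) all lay under the DMSO-Light arrays (7.29, 7.23 and 7.25), as for 14.4% of probe sets. The difference was -0.22 (standard error 0.06, 95% confidence interval -0.34 to -0.10, adjusted p = 0.142). In sham animals the U0126-Sham arrays (7.20, 6.95 and 7.03) reached across the DMSO-Sham arrays (7.16, 7.17 and 7.20), with a difference of -0.12 (adjusted p = 0.417, 3.49% of probe sets called). Averaged over sham and light, Cry1 was lower with U0126 by 0.17 (difference -0.17, standard error 0.04, adjusted p = 0.0188), and the difference was -0.11 with the SCN marker level as a covariate (adjusted p = 0.139). At CT4 and CT22 the averaged differences of Cry1 were -0.07 and 0.05 (adjusted p = 0.797 and 0.681, 0.0212% and 0.901% called). The difference of Cry1 between CT22 and CT15 was smaller in size under U0126 than in DMSO, by 0.22 (standard error 0.06, 95% confidence interval 0.10 to 0.34, adjusted p = 0.0416), a fold of 1.17 under the limit that 3.74% of probe sets passed. For Cry2 and Fbxl21 the same contrast gave -0.03 (adjusted p = 0.878) and 0.26 (adjusted p = 0.276). The corresponding contrasts for CT15 minus CT4 (1.24% called) and CT22 minus CT4 (0.0773% called) passed the adjusted p for none of the 3 genes.

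Cry2 was not called for U0126 at any time. Its largest drug differences were 0.15 in lit animals at CT15 (adjusted p = 0.393) and 0.12 in sham animals at CT22 (95% confidence interval -0.0048 to 0.25, adjusted p = 0.58, 1.12% of probe sets called). The latter arrays read 7.52, 7.50 and 7.44 in U0126-Sham and 7.39, 7.44 and 7.26 in DMSO-Sham, so the closest values were nearly equal. At CT4 no probe set was called for U0126 without light (0%, 3667 with an unadjusted p under 0.05), and with light 0.0136% were called at CT4 and 0.0136% at CT22. The light response in DMSO at CT22 lay within 0.09 of that at CT4 for each of the 3 genes (0% called, 4651 probe sets with an unadjusted p under 0.05). For Fbxl21 the 95% confidence interval of this difference was wide, at -0.42 to 0.25. The DMSO-Light and DMSO-Sham arrays of CT4 also differed in Xist. As a check of the drug, Spry4, a feedback inhibitor that ERK signalling switches on, was lower in U0126-Light than in DMSO-Light by 0.99 at CT15 (difference -0.99, adjusted p = 8.33e-05). Of 10 ERK target genes, 3, 3 and 1 were called lower in U0126-Light than in DMSO-Light at CT4, CT15 and CT22 (medians -0.424, -0.435 and -0.229), beside 0.0136%, 0.233% and 0.0136% of all probe sets. At CT4 these lit groups also differed in Xist, as above. In U0126-Sham against DMSO-Sham, 0, 2 and 3 of the 10 were called lower (medians -0.47, -0.191 and -0.215), beside 0%, 3.49% and 1.12%, and none was higher in any of these 6 comparisons.

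**Figure D3:**
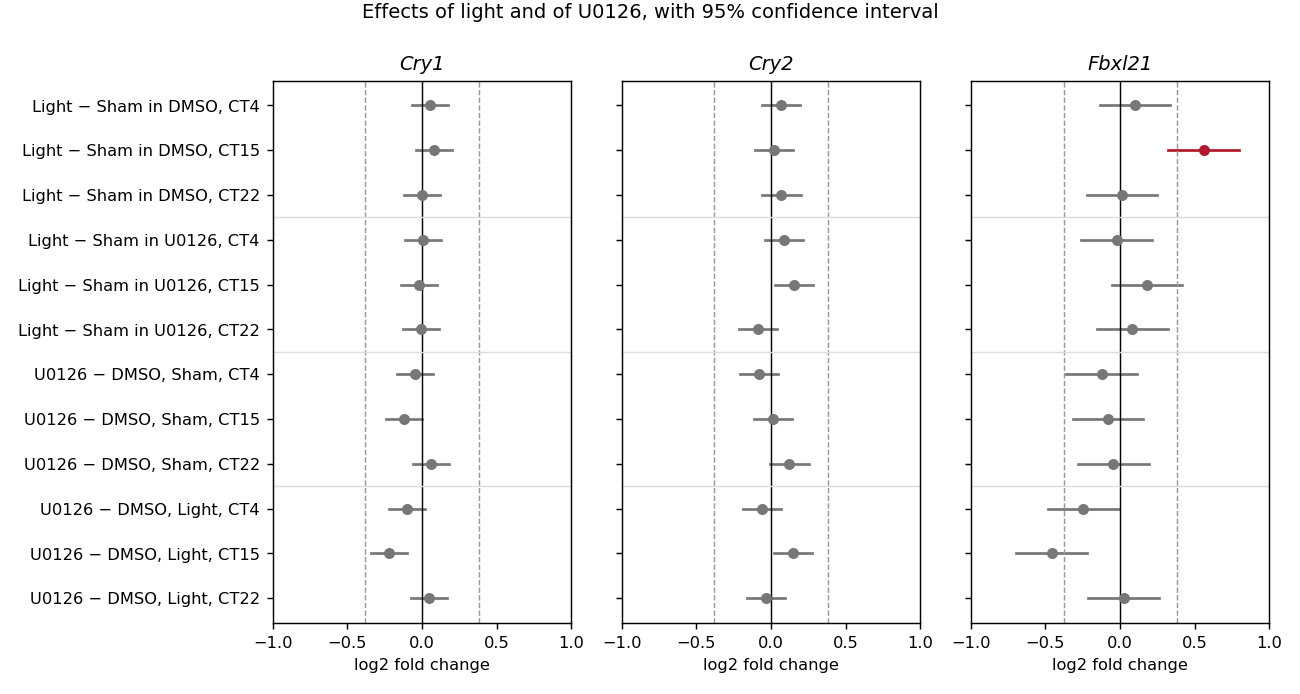
Effects of light (Light minus Sham) and of U0126 (U0126 minus DMSO) on Cry1, Cry2 and Fbxl21 at each time, as log2 fold change with its 95% confidence interval (x axis), 1 row per comparison. Red marks the called difference, grey those with an adjusted p above 0.1, and dashed lines the fold limit. Fbxl21 in DMSO at CT15 is the 1 called value (0.56).

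Among the other genes of the clock loop, those that share a time or a response with the 3 genes are set beside them. Of 17 measured, 1 was higher and 4 were lower at CT15 than at CT4 in DMSO-Sham (median difference -0.178, against -0.0259 over all probe sets), 0 and 2 at CT22 against CT4 (median -0.197, against -0.00353), and 1 and 1 at CT22 against CT15. All probe sets were called at 2.21%, 3.15% and 5.96% in these comparisons, and nothing is read from 2 of 17 at CT22 against either time. Arntl, which encodes the partner of CLOCK, rose at CT15 by 0.49 (adjusted p = 0.00231), in the direction of Cry1. Nr1d1, the repressor REV-ERBα, fell by 0.96 at CT15 against CT4 (adjusted p = 2.2e-06), Per1, a partner of the cryptochromes in repression, by 0.60 (adjusted p = 0.000299), Bhlhe40, an E-box repressor, by 0.49 (adjusted p = 0.0356) and Dbp, a D-box activator, by 0.41 (adjusted p = 0.00154), in the direction of Cry2 and Fbxl21. Per3 and Per2 fell by 0.48 and 0.42 between CT22 and CT4 (adjusted p = 0.000395 and 0.000126). Clock, whose product drives E-box genes, fell with Cry1 between CT22 and CT15 by 0.45 (adjusted p = 3.58e-05), while Nr1d1 rose by 0.77 (adjusted p = 6.69e-06).

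Light in DMSO at CT15 raised 2 of these 17 genes, Per2 by 0.59 (adjusted p = 3.92e-06) and Rora, an activator that competes with REV-ERBα, by 0.79 (adjusted p = 0.00419), and lowered none, with a median of 0.122, where 0.105% of all probe sets were called. U0126 lowered the same genes in lit animals, Per2 by 0.68 (difference -0.68, adjusted p = 1.59e-07) and Rora by 0.86 (difference -0.86, adjusted p = 0.00127), and raised none (median -0.127, against 0.0231 over all probe sets, 0.233% called). Fbxl21 had 0.56 and -0.46 in these comparisons, which share the DMSO-Light arrays, while Cry1 had 0.08 and -0.22 and Cry2 0.02 and 0.15. Unlike Fbxl21, Per2 and Rora also passed the test of a weaker light response at CT22 than at CT15, with -0.46 and -0.98 (adjusted p = 0.0357 each).

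**Figure D4:**
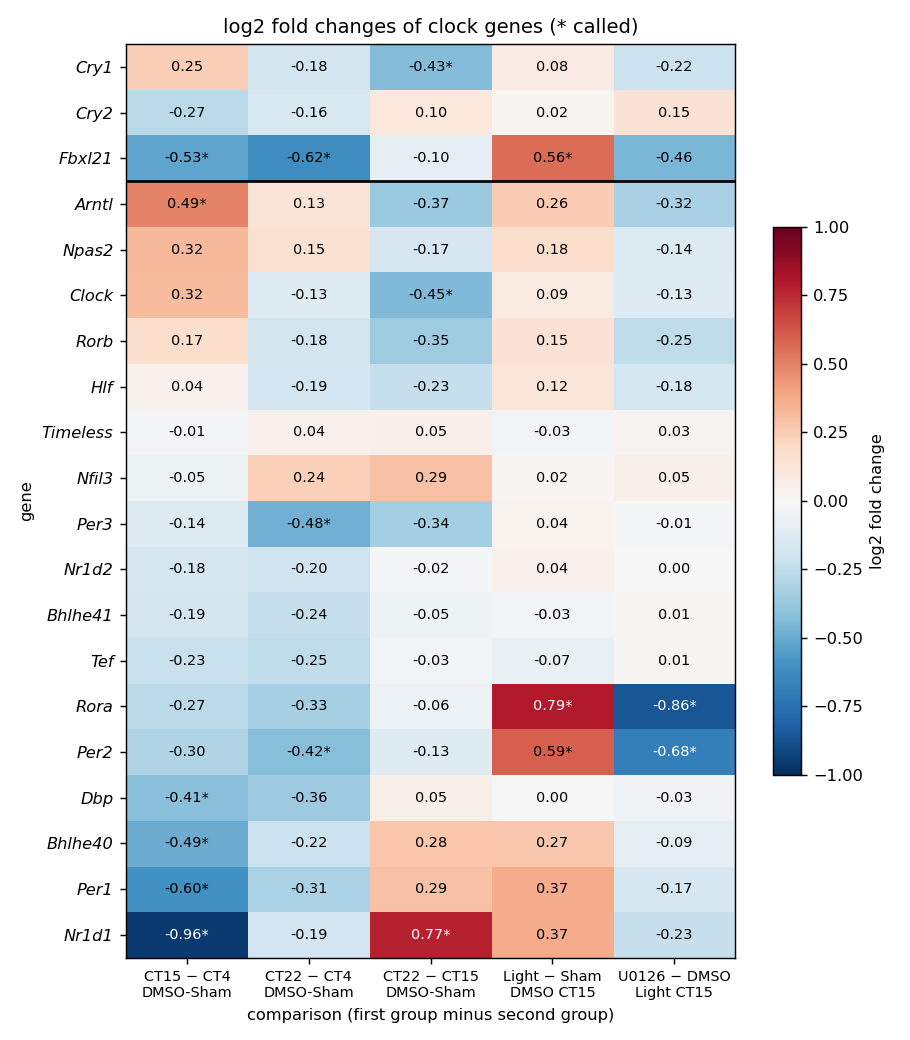
Log2 fold changes (colour and printed value) of Cry1, Cry2 and Fbxl21 (top rows) and 17 other clock genes (rows) in 5 comparisons (columns), with * for called values. Fbxl21 is higher with light in DMSO at CT15 (0.56), as are Rora (0.79) and Per2 (0.59), and the 2 cryptochromes are not.

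Genes of cryptochrome turnover other than Fbxl21 were set beside it. Of 15 measured ligase subunits, deubiquitinases and kinases, 0 were called at CT15 against CT4 in DMSO-Sham, 1 was lower at CT22 against CT4, 0 were called at CT22 against CT15, and 0 were called for light in DMSO at CT15 or for U0126 in lit animals at CT15. These comparisons called 2.21%, 3.15%, 5.96%, 0.105% and 0.233% of all probe sets, so counts of 0 or 1 of 15 do not set the list apart from the rest of the array. The 1 gene was Prkaa2, the catalytic α2 subunit of AMP-activated kinase, which phosphorylates cryptochromes and marks them for ubiquitin ligases: it fell by 0.39 (adjusted p = 0.000807). For light at CT15 Prkaa2 differed by 0.26 (adjusted p = 0.232). Cul1, the scaffold of the ligase that holds FBXL21, and Usp7, a deubiquitinase that acts on cryptochromes, were lower at CT22 than at CT15 by 0.33 and 0.35 (differences -0.33 and -0.35, adjusted p = 5.5e-05 and 9.31e-05), past the p limit and short of the fold limit. Over the 19 other leucine-rich F-box genes measured, 1 was called at CT15 against CT4 in DMSO-Sham, Fbxl16, which fell by 0.39 (adjusted p = 0.00245), and 0 at CT22 against either time, beside 2.21%, 3.15% and 5.96% of all probe sets. None of the 19 was called for light in DMSO at CT15 (median difference -0.00956) or for U0126 in lit animals at CT15 (median 0.0338), comparisons that called 0.105% and 0.233% of all probe sets, so these counts do not set the family apart, and the smallest p there belonged to Fbxl6 (-0.16, adjusted p = 0.758) and Fbxl4 (0.16, adjusted p = 0.235).

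Patterns over the 36 arrays were also compared, as a description, since arrays share groups and times. Cry1 correlated with Cry2 at r = -0.41 and with Fbxl21 at 0.433, and Cry2 with Fbxl21 at 0.351. Within groups, after the group means were taken off, the values were 0.0224, 0.708 and 0.0155, so Cry1 and Fbxl21 moved together among arrays of a group. That was not particular to the pair: within groups Fbxl21 reached 0.756 with Clock and 0.722 with Arntl, and Cry1 reached 0.723 with Hlf. Among 12340 genes with 1 symbol and a mean level of at least 6, those most like Cry1 were Gtf2a1 (0.93), Rad21 (0.925), Lin7c (0.925), Calu (0.921) and Tm9sf3 (0.92), and the least like were Sh3glb2 (-0.886), Mov10 (-0.885) and Plekha7 (-0.878). Gtf2a1 encodes a subunit of the general transcription factor TFIIA, and Rad21 a cohesin subunit. Those most like Cry2 were Slc6a17 (0.839), Astn1 (0.837), Aloxe3 (0.831), Abr (0.831) and Mest (0.831), at lower values than for Cry1, and the least like were Anp32b (-0.793), Cobll1 (-0.751) and Anp32b-ps1 (-0.744). Anp32b-ps1 is named as a pseudogene of Anp32b, so its signal may be shared with that gene.

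Fbxl21 was most like Prkaa2 (0.929), followed by Susd1 (0.891), Slc2a13 (0.881), Kdm5b (0.853) and Ercc6 (0.852), and least like 1700003F12Rik (-0.769), Gm5067 (-0.765) and Ccdc12 (-0.764). Slc2a13 encodes a proton-coupled inositol transporter and Kdm5b a histone H3 demethylase. Among the clock genes Fbxl21 followed Per2 (0.825) and Rora (0.824), Cry1 followed Clock (0.905) and Arntl (0.81), and Cry2 followed Per1 (0.738) and Nr1d1 (0.715).

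**Figure D5:**
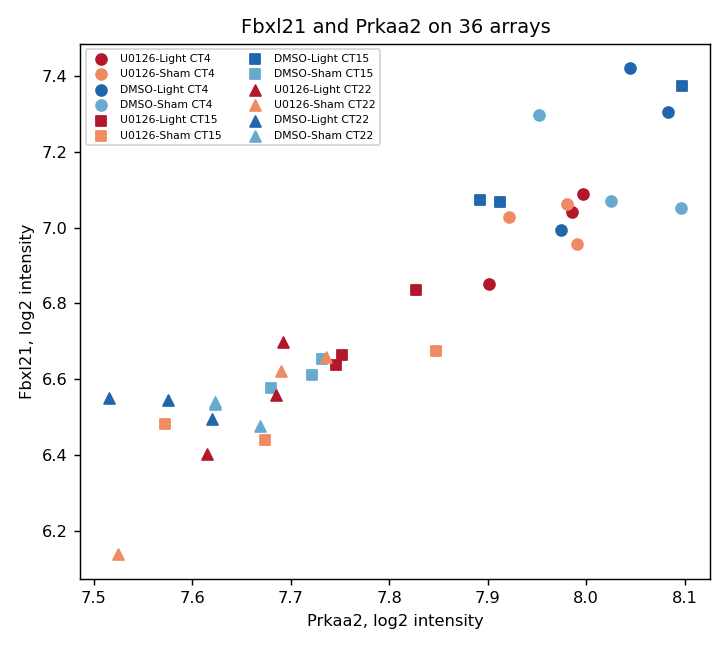
Log2 intensity of Fbxl21 (y axis) against that of Prkaa2 (x axis) on 36 arrays, coloured by treatment and with a symbol per time. Both are high on the CT4 arrays and on the 3 DMSO-Light arrays of CT15, and low on the CT22 arrays (r = 0.929 over 36 arrays).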

How the data were processed

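Affymetrix GeneChip Mouse Transcriptome Assay arrays measured SCN RNA of 36 pools. The values deposited by the authors are log2 intensities made in R with the package oligo; the call and its normalization are not given in the sources used here. The files hold 72688 probe sets; leaving aside 6732 controls, 65956 were tested with no filter on level. Symbols came from the platform annotation. The sample labels give tissue 60 min after the pulse, 3 µL and circadian times, and the series text 50 min.

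One model with 12 group means was fitted in R 4.3.3 by limma 3.58.1, with moderated statistics (eBayes) and Benjamini-Hochberg adjustment within each comparison. Calls needed adjusted p no higher than 0.1 with more than 1.3-fold difference, the limits of the study's methods. The fit was tested on simulated data. Contrasts of U0126 averaged over light and of time differences between drugs were added after the data were seen.

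The members and lists were chosen with earlier results of these data known. Cry1, Cry2 and Fbxl21 are always named; list genes where called in a described comparison, otherwise by the smallest p; and for each member the 5 highest and 3 lowest correlations. Replicates are separate pools. Deviations of same-numbered arrays correlated above 0.1 in all 3 numbers for 2 of 18 pairs of groups, 1 of them U0126-Light with DMSO-Light at CT15 (0.329, 0.175 and 0.413), so the block is given beside that result. Alternatives were the block, the 12 arrays of a time, filters on dim or unnamed probe sets, cyclic loess, a trended robust prior, array weights, Xist or SCN markers as covariate, an adjusted p of 0.05, and each array left out.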

Additional observations from a re-analysis of the deposited data

Results flagged for a closer look

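The fall of Cry1 between CT22 and CT15 differed between drugs by the test of the difference itself. The contrast of U0126 minus DMSO, over sham and light, was 0.22 (95% confidence interval 0.10 to 0.34, limma adjusted p = 0.0416), with differences of -0.24 and -0.25 in U0126-Light and U0126-Sham and of -0.51 and -0.43 in DMSO-Light and DMSO-Sham. Its fold of 1.17 is under the limit of 1.3. Over 24 fits that each left out 1 array the value stayed between 0.19 and 0.26, with an adjusted p from 0.00962 to 0.0918. This contrast was chosen after seeing the data. With the mean SCN marker level as a covariate it was 0.18 (adjusted p = 0.0631).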

How the results depend on the processing

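Of 117 values reported for Cry1, Cry2 and Fbxl21, the Fbxl21 decreases at CT22 against CT4 in DMSO-Sham, in DMSO-Light and over the 4 treatments, its decrease at CT15 against CT4 in DMSO-Sham and U0126-Sham, and the Cry1 decreases at CT22 against CT15 in DMSO-Sham and DMSO-Light kept their call under every alternative run. The light response of Fbxl21 in DMSO at CT15 stayed 0.56 but was no longer called with only the 12 arrays of the time (adjusted p = 0.164) or an adjusted p limit of 0.05 (adjusted p = 0.0554), and was 0.37 with the SCN marker level as a covariate (adjusted p = 0.437). U0126 in lit animals at CT15 gave -0.46 for Fbxl21 and was called with the replicate block (adjusted p = 0.0856), without dim probe sets (0.0702), with named probe sets only (0.0822) and with a trended robust prior (0.0878), at -0.43 with array weights (0.038) and at -0.46 with Xist as a covariate (0.079), whereas with the SCN marker level as a covariate it was -0.20 (0.427) and not called. The block changed no other call. Over 6 fits that each left out 1 array, Fbxl21 for U0126 in lit animals at CT15 ran from -0.52 to -0.36. The adjusted p ran from 0.128 to 0.481, and 0 of these 6 fits gave a call. Fbxl21 at CT22 against CT4 in U0126-Light was -0.36 with Xist as a covariate (adjusted p = 0.0794), under the fold limit. With the SCN marker level as a covariate, Fbxl21 was -0.25 at CT22 against CT15 in DMSO-Light (adjusted p = 0.436, no longer called), and -0.50 in U0126-Light (adjusted p = 0.0509) and -0.57 over the 4 treatments (adjusted p = 2.59e-05) at CT15 against CT4, both then called. The same covariate gave -0.099 for U0126 averaged over light at CT15 (adjusted p = 0.529) and -0.14 for the light response at CT22 minus CT15 (0.87). The causes were not tested.

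No value that changed sign was called. With cyclic loess, the sign turned for Cry1 at -0.0066 (light in DMSO at CT22), -0.0074 (light in U0126 at CT4). With array weights, the sign turned for Fbxl21 at 0.073 (CT22 minus CT15 in U0126-Sham), -0.010 (light in U0126 at CT22), -0.024 (light response, U0126 minus DMSO, at CT22), 0.084 (U0126 without light at CT22), 0.072 (U0126 averaged over light at CT22) and Cry2 at -0.014 (light response in DMSO, CT22 minus CT4). With Xist as a covariate, the sign turned for Cry1 at 0.0081 (light in U0126 at CT22), 0.0068 (light response, U0126 minus DMSO, at CT22), -0.044 (light response in DMSO, CT15 minus CT4) and Cry2 at 0.0050 (light response in DMSO, CT15 minus CT4). With the SCN marker level as a covariate, the sign turned for Fbxl21 at -0.0054 (light in DMSO at CT4), 0.042 (light in U0126 at CT4), 0.048 (light response, U0126 minus DMSO, at CT4), -0.16 (light response, U0126 minus DMSO, at CT22), 0.0063 (U0126 without light at CT15), 0.10 (U0126 without light at CT22), -0.054 (U0126 with light at CT22), 0.24 (light response in DMSO, CT22 minus CT4), 0.017 (CT15 minus CT4, U0126 minus DMSO), 0.025 (U0126 averaged over light at CT22) and Cry1 at 0.0027 (light response, U0126 minus DMSO, at CT4), -0.00013 (light response in DMSO, CT15 minus CT4), 0.046 (light response in DMSO, CT22 minus CT4), 0.046 (light response in DMSO, CT22 minus CT15) and Cry2 at -0.025 (light response in DMSO, CT22 minus CT4). Among values recomputed with 1 array left out, 44 turned a sign and 8 lost a call. The values then ran for Cry2 -0.030 to 0.058 (light response, U0126 minus DMSO, at CT4), -0.049 to 0.039 (light response in DMSO, CT22 minus CT4), -0.0081 to 0.078 (CT22 minus CT4 in U0126-Sham), -0.023 to 0.066 (light in DMSO at CT15), -0.028 to 0.033 (U0126 without light at CT15), -0.075 to 0.027 (CT22 minus CT15 in U0126-Light). They ran for Cry1 -0.028 to 0.060 (light response in DMSO, CT15 minus CT4), -0.0047 to 0.027 (light in U0126 at CT4), -0.075 to 0.053 (light in U0126 at CT15), -0.024 to 0.016 (light in DMSO at CT22), -0.055 to 0.035 (light response, U0126 minus DMSO, at CT22), -0.053 to 0.037 (light in U0126 at CT22). They ran for Fbxl21 -0.21 to 0.0029 (light response in DMSO, CT22 minus CT4), -0.19 to 0.022 (CT15 minus CT4 in DMSO-Light), -0.64 to -0.38 (CT22 minus CT4 in U0126-Sham), -0.070 to 0.049 (light in U0126 at CT4), -0.51 to -0.36 (CT22 minus CT4 in U0126-Light), 0.46 to 0.61 (light in DMSO at CT15), -0.15 to 0.11 (CT22 minus CT15 in U0126-Sham), -0.0070 to 0.030 (light in DMSO at CT22), -0.10 to 0.16 (light response, U0126 minus DMSO, at CT22), -0.14 to 0.12 (U0126 without light at CT22), -0.057 to 0.073 (U0126 averaged over light at CT22), -0.050 to 0.10 (U0126 with light at CT22), -0.086 to 0.17 (light in U0126 at CT22).

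The share of all probe sets called for light in DMSO at CT15 ran from 0.0349% to 0.22% over the alternatives (23 to 125 against 69) and from 0.0288% to 0.185% with 1 array left out. For U0126 in lit animals at CT15 it ran from 0.0637% to 2.74% (42 to 1808 against 154). Each gene had 1 probe set of its own, so the alternative of other probe sets gave no value. Within a treatment, differences of Fbxl21 carried a standard error of 0.12 with 3 pools a group, which limits what could be separated from 0.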
